A study of Mus musculus with 5 samples.

Results

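Rgs5, Des, Cspg4, Mcam, Kcnj8, Abcc9 and Pdgfrb are genes commonly used to recognise pericytes. They were looked up by symbol among the 27998 genes of the count tables, and all 7 were found. Their raw unique molecular identifiers (UMIs, each standing for a captured transcript) were read in the barcodes of 5 single-cell RNA sequencing (scRNAseq) libraries. A barcode was called co-expressing when at least 3 of the 7 genes had a UMI, with fewer than 2 UMIs of the endothelial genes Pecam1 and Cdh5 together and fewer than 2 of the basal epithelial genes Krt14 and Krt17 together. Of 14317 barcodes that passed the quality thresholds, 67 met this rule.

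Pericytes are mural cells that lie inside the basement membrane of capillaries and small venules, wrapped around the endothelial tube. Endothelial cells recruit them with platelet-derived growth factor B, which pericytes sense through the receptor encoded by Pdgfrb, and the contact between both cells steadies the vessel and helps to set its tone. In the mammary gland they accompany the capillaries around the ducts and in the fat pad.

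The glands came from ovariectomized BALB/cj mice, 30 weeks old, whose treatment began 20 weeks after the operation and lasted 1 week. OVX received vehicle (DMSO) alone. OVX_E2 was given 17β-estradiol, 1 µg for each animal daily, and OVX_E2_P4 received the same dose with progesterone, 0.1 mg for each animal daily. OVX_E2_PBDE and OVX_E2_P4_PBDE received these hormones and food that held polybrominated diphenyl ethers (PBDEs, flame retardants), BDE-47 at 7.1, BDE-100 at 0.4 and BDE-153 at 0.9 mg/kg. Mice of all 5 groups had lost their ovaries. Each group was 1 library from whole digested number 4 glands without cell sorting, after the lymph node and dead cells were removed, and how many mice a library pooled is not given in the sources used here.

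The deposited tables held 14344 barcodes, from 2233 to 3536 per library, with median depths from 5345 to 8698 UMIs per barcode. Barcodes were clustered with the 7 genes left out, and clusters were named from marker genes as endothelial-like (240 barcodes in 1 cluster), fibroblast-like (7207), basal-like (453), luminal-like (5807) and hematopoietic-like (610). Pericyte was not among the names a cluster could take. There were 80 barcode sequences that occurred in more than 1 library, 1 of them on a co-expressing and 3 on endothelial-like barcodes. Levels are CPM, the UMIs of a gene summed over a set of barcodes per 1000000 UMIs of that set. Transcripts were read as 3′ tags, so CPM was not divided by gene length. Values in parentheses after a level, share or ratio are exact 95% intervals and cover counting error only. Since each group had a single library, differences between groups carry no test, and treatment and library cannot be told apart.

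The 250 bases upstream of the start of Rgs5, Des and Kcnj8 are shown because these genes stand for the main patterns described here. Rgs5 and Des had most of their UMIs in the endothelial-like cluster, while Kcnj8 was shared with fibroblasts. The sequences are from RefSeq, GRCm38.p6, 5′ to 3′ on the strand of the gene, with capitals where a motif named in the next paragraph matched on either strand. The windows are chr1:169655251-169655500 (plus), chr1:75360042-75360291 (plus) and chr6:142571615-142571864 (minus).
Rgs5: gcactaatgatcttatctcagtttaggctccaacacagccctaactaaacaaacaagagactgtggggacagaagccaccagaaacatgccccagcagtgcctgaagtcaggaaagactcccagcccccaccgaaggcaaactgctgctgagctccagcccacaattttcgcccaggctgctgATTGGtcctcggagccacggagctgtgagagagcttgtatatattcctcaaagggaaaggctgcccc
Des: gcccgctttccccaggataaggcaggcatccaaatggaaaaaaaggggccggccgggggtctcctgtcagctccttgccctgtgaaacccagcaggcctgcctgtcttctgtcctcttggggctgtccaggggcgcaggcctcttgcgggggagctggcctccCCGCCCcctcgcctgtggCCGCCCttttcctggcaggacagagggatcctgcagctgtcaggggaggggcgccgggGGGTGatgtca
Kcnj8: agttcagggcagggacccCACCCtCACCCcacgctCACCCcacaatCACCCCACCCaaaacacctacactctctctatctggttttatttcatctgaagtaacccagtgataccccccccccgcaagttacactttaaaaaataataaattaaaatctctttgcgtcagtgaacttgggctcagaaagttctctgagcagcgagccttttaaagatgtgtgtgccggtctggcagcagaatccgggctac

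Rgs5 had 1 match to CCAAT, a motif held by 33.8% of 32851 windows of the same length. Des had 2 matches to GGGCGG, held by 32.7% of windows, and 1 to CACCC, held by 52.0%. Kcnj8 had 5 matches to CACCC, a number that 0.67% of windows reached or exceeded, and the window of its neighbour Abcc9 also had 5. TATAAA, present in 12.4% of windows, was in none of the 6 windows found for the 7 genes. These are matches of letters, and 3′ tags do not read the promoters.

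In GRCm38 with the GENCODE M21 annotation, Rgs5 lies at chr1:169655501-169695813 and Des at chr1:75360329-75368579, both on the plus strand. Cspg4 lies at chr9:56865033-56899870 and Mcam at chr9:44134469-44142727, both on the plus strand. Kcnj8, at chr6:142564837-142571614, and Abcc9, at chr6:142587862-142702315, are neighbours on the minus strand, 16.2 kb apart with no annotated gene between them. Des, Mcam and Abcc9 each overlap an annotated gene on the opposite strand.

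All 7 genes had their highest level in the endothelial-like cluster, which held 1.68% of the barcodes. Its leading genes were Fabp4, Plvap, Flt1, Rbp7, Id1, Pecam1, Gpihbp1, Kdr, Ednrb and Cd36. Rgs5 and Des were the most restricted to this cluster, and Pdgfrb the least.

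**Figure D1:**
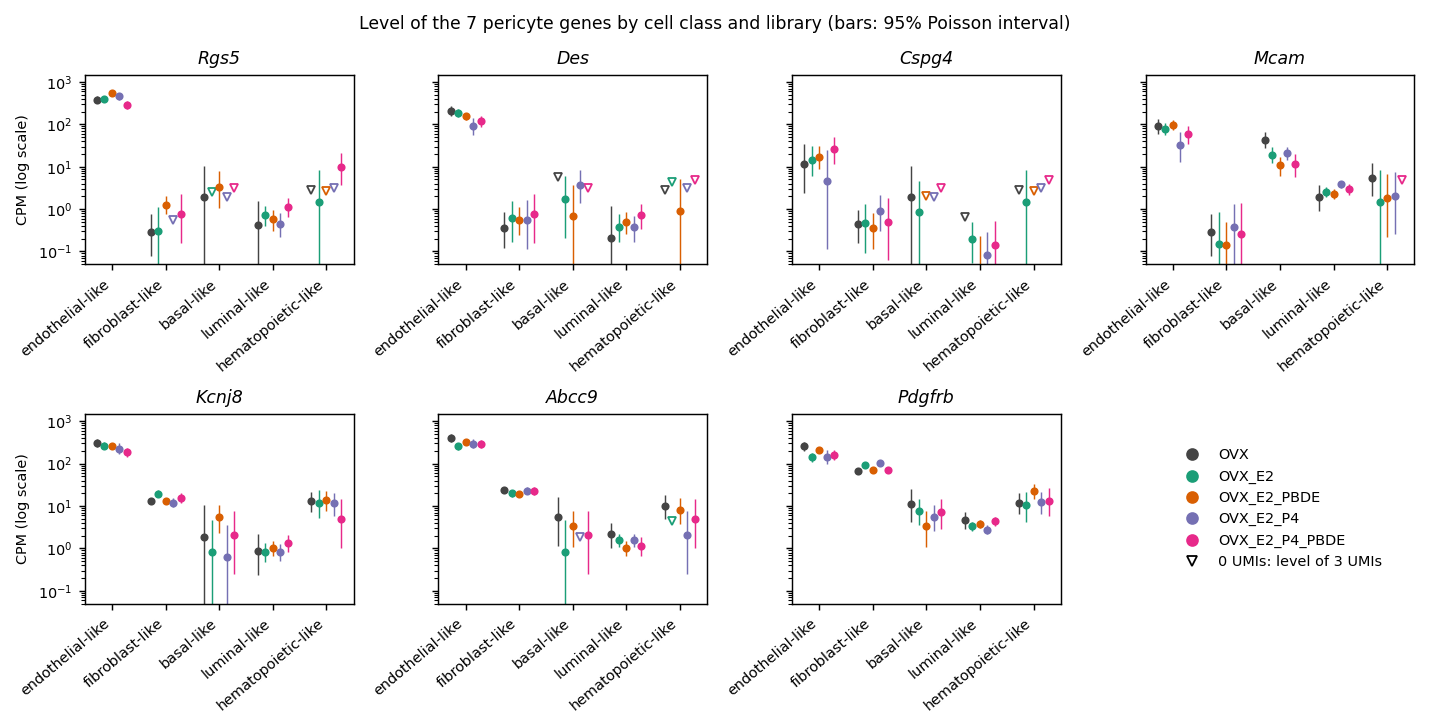
Levels of the 7 genes (CPM, log axis) in 5 classes of barcodes, 1 panel per gene and 1 point per library, with 95% Poisson intervals as bars and open triangles at the level of 3 UMIs where a library had none. Each gene is highest in the endothelial-like class, 274 times the next class for Rgs5 and 2.38 times for Pdgfrb over all libraries.

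Rgs5 encodes a regulator that shortens signalling by G-protein-coupled receptors. Its level was 435 CPM (406 to 465) in the endothelial-like cluster and 1.58 CPM in the next class, the hematopoietic-like barcodes, where 6 of the 7 UMIs were in 2 barcodes of OVX_E2_P4_PBDE. The cluster held 89.6% of its 939 UMIs. Des encodes desmin, an intermediate filament of muscle and mural cells, and stood at 157 CPM (139.6 to 175) against 1.56 CPM in basal-like barcodes. The cluster held 80.6% of its 376 UMIs. Cspg4 encodes the proteoglycan NG2 and was the scarcest member, with 64 UMIs in all. Its level was 16 CPM (10.9 to 22.8) in the cluster and 0.479 CPM in fibroblast-like barcodes.

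Mcam encodes the adhesion molecule CD146, present on endothelial and mural cells. Its level was 77.1 CPM (65.2 to 90.5) in the endothelial-like cluster and 18.4 CPM (15.1 to 22.2) in basal-like barcodes. Most of its 528 UMIs were epithelial, 47.7% in luminal-like and 20.1% in basal-like barcodes. The basal-like barcodes of OVX had 43.4 CPM (27.5 to 65.1), and those of the other libraries had between 10.7 and 20.7 CPM.

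Kcnj8 and Abcc9 encode the pore Kir6.1 and the sulfonylurea receptor SUR2 of the ATP-sensitive potassium channel of vascular cells. Kcnj8 stood at 252 CPM (230.0 to 275) in the endothelial-like cluster and 14.2 CPM (13.1 to 15.4) in fibroblast-like barcodes. Abcc9 stood at 310.3 CPM (286 to 336) and 21.5 CPM (20.1 to 22.9). Because fibroblast-like barcodes were many, they held 49.5% of the Kcnj8 and 55.4% of the Abcc9 UMIs. Pdgfrb, at chr18:61045150-61085061 on the plus strand, stood at 184 CPM (165 to 204) in the cluster and 77.1 CPM (74.5 to 79.7) in fibroblast-like barcodes, which held 81.5% of its 4148 UMIs.

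Co-expression of the 7 genes was concentrated in barcodes that also carried endothelial transcripts. Of 251 barcodes with at least 3 of the genes, 182 (72.5%) had at least 2 UMIs of Pecam1 and Cdh5, and all 182 were in the endothelial-like cluster. At least 2 UMIs of Krt14 and Krt17 were present in 3, of which 1 had the endothelial UMIs too, and 67 remained. Of 162 barcodes with at least 4 of the genes, 152 had the endothelial UMIs. Of 92 with at least 5, all lay in the endothelial-like cluster and 90 had the endothelial UMIs.

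**Figure D2:**
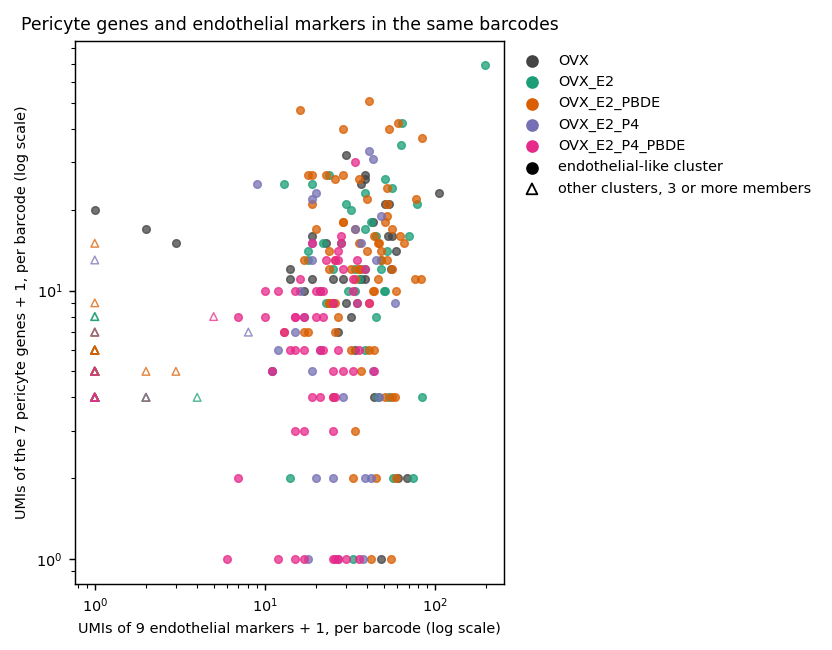
Barcodes placed by their UMIs of 9 endothelial markers (x axis) and of the 7 pericyte genes (y axis), 1 added to each and both axes logarithmic, with colours for the 5 libraries. Circles are the 240 barcodes of the endothelial-like cluster, and triangles are barcodes of other clusters with at least 3 of the genes, which lie at low endothelial counts.

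The 67 co-expressing barcodes carried mostly the profile of other cell types. By cluster, 45 were fibroblast-like, 11 luminal-like, 6 endothelial-like, 4 hematopoietic-like and 1 basal-like. In 47 (70.1%) the genes present were exactly Kcnj8, Abcc9 and Pdgfrb, the members that fibroblasts also expressed. Exactly 3 genes were present in 58 barcodes, and in 28 no member had more than 1 UMI.

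Kcnj8 stood at 136 CPM (110.3 to 166) in these barcodes, Abcc9 at 123 CPM (99.1 to 152) and Pdgfrb at 136 CPM (110.3 to 166), levels that the choice of barcodes fixes in part. Rgs5 stood at 29.1 CPM (18 to 44.5) and Des at 18 CPM (9.59 to 30.8). Cspg4 and Mcam had 4 UMIs each. The fibroblast proteoglycan gene Dcn stood at 7659 CPM, against 11238 CPM in fibroblast-like barcodes and 482 CPM in endothelial-like barcodes with at least 3 of the genes. A co-expressing barcode had a median of 157 UMIs of 6 fibroblast markers, 7 of 21 other pericyte markers and 0 of the endothelial markers. For the 182 barcodes with endothelial UMIs these medians were 8, 18.5 and 32.5. Pecam1 and Cdh5, which separated these sets, are among the endothelial markers, so the rule fixes the endothelial contrast in part. Fibroblasts also expressed part of the other pericyte markers. The list summed to 832 CPM in co-expressing, 866 CPM in fibroblast-like and 2367 CPM in endothelial-like barcodes with at least 3 of the genes. Highest in fibroblast-like barcodes were Cd248 (310.1 CPM), Cygb (284 CPM) and Ebf2 (122 CPM). The data go against the name pericyte for the barcodes chosen by the rule, which are called co-expressing barcodes here.

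Only 9 barcodes with at least 4 of the genes were without the endothelial and basal UMIs. The 3 from OVX lay in the endothelial-like cluster and had 1, 2 and 0 UMIs of the endothelial markers beside 61, 24 and 22 of the other pericyte markers. Each had Des, Kcnj8, Abcc9 and Pdgfrb, and 1 had Rgs5, with 3 UMIs. Of the other 6, 1 was fibroblast-like with 244 fibroblast UMIs and 6 of the other pericyte markers. Another 3 were luminal-like with 610, 190 and 97 luminal UMIs, beside 5, 20 and 25 of the other pericyte markers. The latter 2, from OVX_E2_P4, had 0 endothelial UMIs. Another was basal-like with 202 smooth muscle UMIs, 51 of them from Acta2, and 6 of the other pericyte markers. The last, from OVX_E2_P4_PBDE, lay in the endothelial-like cluster and had 14 endothelial UMIs and 15 of the other pericyte markers.

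Each gene was also read in barcodes that had at least 3 of the other 6, so that no gene chose itself. Abcc9 was found in 87.8% of these barcodes (81.9 to 92.3), against 5.44% of barcodes with none of the other 6. Kcnj8 was found in 74.6% (67.7 to 80.7) against 3.90%, and Pdgfrb in 73.9% (66.7 to 80.2) against 17%. The share was highest for these 3 genes. Des was found in 53.6% (47.0 to 60.2) against 0.505%, Rgs5 in 48.7% (42.2 to 55.3) against 0.594%, and Mcam in 36.0% (29.9 to 42.3) against 2.69%. Cspg4 was found in 11.7% (7.97 to 16.4) against 0.189%. Median depths were from 7660 to 7921 UMIs in the former barcodes and from 6949 to 7253 in the latter. Among 45 fibroblast-like barcodes with at least 3 of the other genes, Des and Mcam were found in 0, which allows a share of up to 7.87% by the exact interval. These contrasts mix cell classes. For Abcc9, 162 of 172 barcodes with at least 3 were endothelial-like, against 21 of 10627 with none. Inside that cluster the shares were 90.7% against 23.8% for Abcc9, 77.0% against 15.8% for Kcnj8 and 73.8% against 0 for Pdgfrb. They were 70.8% against 0 for Des, 62.7% against 20.0% for Rgs5, 46.7% against 20.0% for Mcam and 15.1% against 0 for Cspg4. The latter sets held only 16 to 21 barcodes. The 0 for Cspg4 allows up to 20.6%, and the intervals of Mcam (39.3 to 54.2 and 5.73 to 43.7) overlap, so these genes were not set apart. Intervals of the other genes were separate. Median depths in the cluster were from 7586 to 7739 UMIs in the former barcodes and from 5388 to 5736 in the latter. Among barcodes without the endothelial and basal UMIs, Pdgfrb was found in 81.8% against 17.7%, Kcnj8 in 53.3% against 4.04% and Abcc9 in 50% against 5.59%. Des was found there in 10.8% against 0.474% and Rgs5 in 8.20% against 0.547%. Cspg4 was found in 1.54% (0.0389 to 8.28) against 0.190%, and Mcam in 1.56% (0.0396 to 8.40) against 1.86%. These shares of 1.54% and 1.56% rest on 1 barcode each, so they decide little. The sets with at least 3 of the other genes held from 11 to 65 barcodes here.

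Within the endothelial-like cluster, 188 of 240 barcodes (78.3%, 72.6 to 83.4) had at least 3 of the 7 genes, and 32 had 0 or 1. After each barcode was thinned to 3000 UMIs, 107 (44.6%) had 3 or more. Of the 188, 182 (96.8%) had at least 2 UMIs of Pecam1 and Cdh5, 163 (86.7%) had both of these genes, and 157 (83.5%) had 10 or more UMIs of the other pericyte markers. Only 4 of the 240 had 5 or fewer UMIs of the endothelial markers, the 3 OVX barcodes above and 1 with none of the 7 genes.

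Other pericyte markers were higher where more of the 7 genes were present, while the endothelial markers varied less. The 21 other pericyte markers summed to 354 CPM (281 to 440.5) in barcodes with 0 or 1 of the genes, 1616 CPM with 2 or 3, 2426 CPM with 4 and 2512 CPM with 5 to 7. The 9 endothelial markers summed to 4853, 4018, 3911 and 4197 CPM in the same order. Notch3, a receptor of mural cells, stood at 8.85, 136, 299 and 237 CPM, and Higd1b, used as a marker of capillary pericytes, at 4.42, 37.7, 106 and 132 CPM. The fibroblast markers summed to 2274, 2556, 1892 and 1259 CPM, and the median depth was 5862, 6128, 7687 and 7810 UMIs. Over the 240 thinned barcodes, which share libraries and free RNA, Spearman's rho was 0.533 between the 7 genes and the other pericyte markers, -0.110 between the 7 genes and the endothelial markers, and -0.242 between both marker lists.

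**Figure D3:**
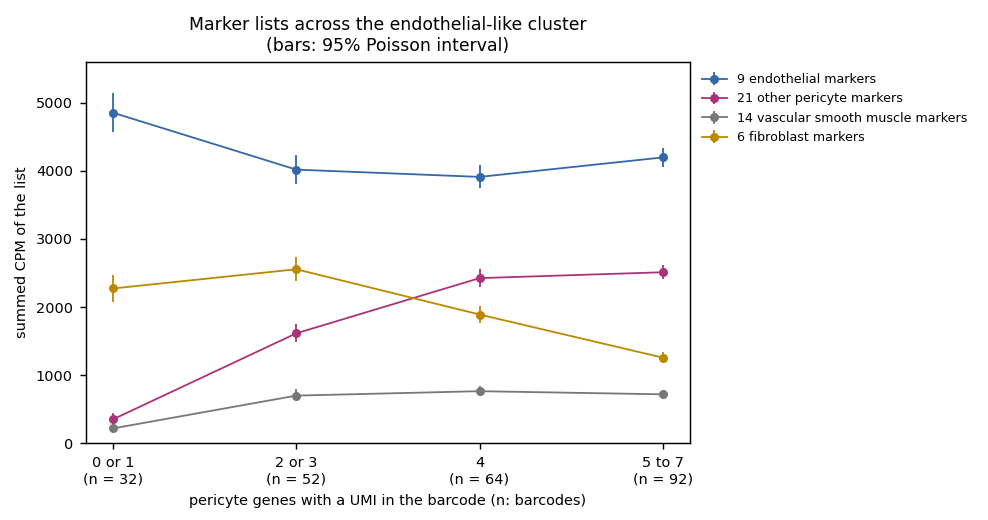
Summed level of 4 marker lists (CPM, linear axis) in endothelial-like barcodes, grouped by how many of the 7 genes had a UMI, with 95% Poisson intervals as bars. The other pericyte markers go from 354 to 2512 CPM, the endothelial markers stay between 3911 and 4853 CPM, and the fibroblast markers end at 1259 CPM.

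The 188 barcodes with at least 3 of the genes were compared with the 32 with 0 or 1. In the 32, a single UMI made 4.42 CPM, so low levels given for them rest on few UMIs. The 188 came from OVX (30), OVX_E2 (37), OVX_E2_PBDE (63), OVX_E2_P4 (21) and OVX_E2_P4_PBDE (37). In the same order of libraries, the 32 numbered 3, 5, 5, 7 and 12. The split is thus mixed with library, and the part of library was not tested. Of 9858 genes compared, 922 (9.35%) were at least 2-fold higher in the 188 and 948 at least 2-fold lower. Of the other pericyte markers, 17 of the 19 compared were higher, with a median log2 ratio of 2.12 against -0.08 over all genes. Cygb, which encodes cytoglobin, stood at 493 against 88.5 CPM, Steap4, a metalloreductase, at 552 against 75.2 CPM and Cd248, which encodes endosialin, at 61.2 against 17.7 CPM. In fibroblast-like barcodes these stood at 284, 43.6 and 310.1 CPM, so Cd248 was higher there than in the 188. Ndufa4l2 stood at 211 against 17.7 CPM. Cox4i2 had 89 UMIs in the 188 barcodes and 0 in the 32, which allows up to 16.3 CPM.

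Smooth muscle markers were higher less uniformly, with 5 of 10 compared. Tpm2, a tropomyosin, stood at 162 against 13.3 CPM and Myl9, a myosin light chain, at 147 against 22.1 CPM. Acta2, the actin of contractile cells, stood at 42.9 against 17.7 CPM, and at 4886 CPM in basal-like barcodes. Myocd, Pln and Actg2 had no UMI in the 188.

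Of the 9 endothelial markers none was 2-fold higher and 1 was lower. Flt1, a receptor for vascular endothelial growth factor, stood at 881 against 1093 CPM and Kdr, another, at 734 against 818 CPM. The lymphatic markers were lower, 3 of 3 compared. Prox1, the lymphatic transcription factor, stood at 6.94 against 66.4 CPM and Mmrn1 at 0.631 against 106 CPM.

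Among markers of other cells, 1 of 6 fibroblast genes was higher, Pdgfra, on 1 UMI in the 32. Lower were 4 of 8 luminal genes, 1 of 4 hematopoietic genes and the 1 Schwann gene compared. Of 2 proliferation genes compared neither passed. No basal or adipocyte gene had enough UMIs, and the 6 skeletal muscle genes had none. Summed levels in the 188 and the 32 were 1547 and 2274 CPM for the fibroblast list, 812 and 1584 CPM for the luminal list and 66.2 and 39.8 CPM for the hematopoietic list. Their part in the comparison was not tested.

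Among ligands and receptors of the platelet-derived growth factor family, 3 of 5 genes were higher, including Pdgfrb, which the split itself used. Pdgfa, a ligand, stood at 146 against 17.7 CPM and Pdgfra, a receptor typical of fibroblasts, at 22.1 against 4.42 CPM. Pdgfd stood at 42.3 against 53.1 CPM, and Pdgfb, the ligand released by endothelium, at 89.6 against 57.5 CPM. Of 19 genes for other signals between pericytes and endothelium 8 were higher, among them Notch3 (242 against 8.85 CPM) and Ednrb, an endothelin receptor (821 against 208 CPM). This list shares Notch3 and further genes with the other pericyte markers, so its count is not separate from theirs. Hes1, a target of Notch signalling, stood at 556 against 447 CPM and Tgfbr2 at 168 against 217 CPM.

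In the lists of channel, RGS and filament genes, members of the split made up most of the higher genes. Kcnj8 and Abcc9 were both of the potassium channel genes compared, and the pancreatic type subunits Kcnj11 and Abcc8 had 0 and 2 UMIs in the 188. Of 6 RGS genes 2 were higher, Rgs5 and Rgs4, the latter at 76.3 against 13.3 CPM, while Rgs3 stood at 109.8 against 66.4 CPM. Rgs4 is also one of the other pericyte markers. Of 4 intermediate filament genes Des alone was higher, and vimentin (Vim) stood at 717 against 593 CPM.

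Of 12 basement membrane genes 2 were higher, Nid2 and Col18a1. Sparc, a matrix glycoprotein, stood at 2625 against 1539 CPM and the related Sparcl1 at 2142 against 1283 CPM. Of 5 receptors for steroids and aryl hydrocarbons none was higher and 2 were lower, Esr1, the estrogen receptor (7.57 against 31.0 CPM), and Pgr, the progesterone receptor (10.1 against 26.5 CPM), on 7 and 6 UMIs in the 32. Of 10 dissociation stress genes none passed, and Fos stood at 3644 against 3048 CPM.

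Quality measures of the endothelial-like cluster stood apart from those of other barcodes. The median mitochondrial share was 5.03% against 2.50%, and the median Scrublet score for doublets was 0.217 against 0.148. Within the cluster the median mitochondrial share was 5.31% in the 188 barcodes and 3.51% in the 32. Among the 188 barcodes, 36.2% were in the 20% of highest scores of their library, against 50% of the 32 and 19.0% of all barcodes. The part of doublets in the joint presence of pericyte and endothelial transcripts was not tested.

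Pairs of the 7 genes were loosely associated from barcode to barcode inside the cluster. After thinning, Abcc9 was present in 67.0% (56.9 to 76.1) of barcodes with Kcnj8 and in 40.7% (32.5 to 49.3) of those without, and rho was 0.280, the highest of the 21 pairs. Mcam and Kcnj8 had the lowest rho, -0.144. Kcnj8 was present in 24.4% (12.4 to 40.3) of barcodes with Mcam and 45.2% (38.2 to 52.4) of those without, intervals that overlap.

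In fibroblasts the shared genes had separate distributions over the 8 clusters. Pdgfrb was highest in the cluster led by Mfap4 and Postn, genes of the extracellular matrix, at 188 CPM (178 to 199), where Kcnj8 was 3.83 CPM (2.50 to 5.61). Kcnj8 was highest in the cluster led by Akr1c18 and Ifi27l2a, at 22.9 CPM (20.1 to 26.0), and that led by Cxcl13 and Sfrp2, at 21.4 CPM (18.4 to 24.8). Abcc9 reached 41.4 CPM (32.0 to 52.8) in the cluster led by Hbb-bs and Gdf10. In the cluster led by Cxcl14 and Lpl, Abcc9 was 30.9 CPM (26.2 to 36.2) and Kcnj8 2.83 CPM (1.55 to 4.74). These levels are pooled over libraries, which filled the clusters unequally, and 785 of the 1009 barcodes of the Cxcl14 cluster were from OVX. In OVX alone, Kcnj8 and Abcc9 stood at 2.46 and 33.3 CPM in that cluster. They stood at 17.5 and 17.2 CPM in the OVX barcodes of the cluster led by Mrgprg and Gm12840. The channel subunits thus did not keep 1 proportion over the fibroblast clusters.

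**Figure D4:**
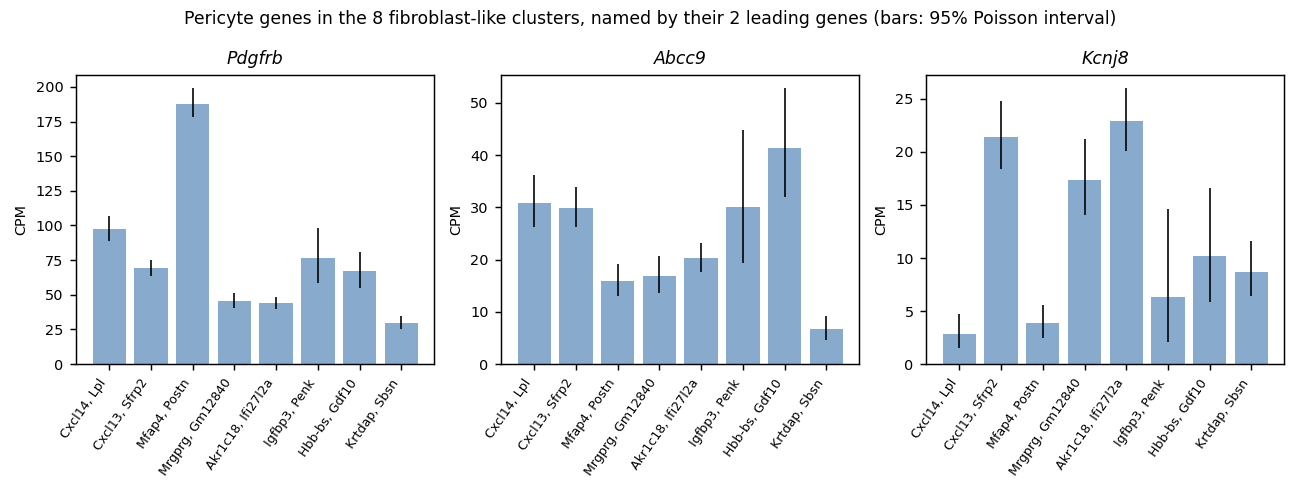
Levels of Pdgfrb, Abcc9 and Kcnj8 (CPM, each panel from 0 on its own scale) in the 8 fibroblast-like clusters, named by their leading pair of genes, with 95% Poisson intervals. Pdgfrb is highest in the Mfap4 cluster at 188 CPM, Abcc9 in the Hbb-bs cluster at 41.4 CPM and Kcnj8 in the Akr1c18 cluster at 22.9 CPM. Barcodes are pooled over all libraries, which filled the clusters unequally.

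After thinning, Abcc9 was present in 11.5% (7.84 to 16.1) of fibroblast-like barcodes with Kcnj8 and in 5.98% (5.44 to 6.56) of those without. Within the Cxcl13 cluster these shares were 16.9% (8.76 to 28.3) and 8.80% (7.23 to 10.6), and within the Akr1c18 cluster 10.0% (4.68 to 18.1) and 5.94% (4.81 to 7.24), with overlapping intervals. Pdgfrb was present in 15.9% (11.6 to 21) of barcodes with Kcnj8 and 18.5% (17.6 to 19.5) of those without. Kcnj8 was also found in the hematopoietic-like cluster led by Jchain, Gzma and Ccl5, at 25 CPM (18.5 to 33.0), beside Dcn at 3022 CPM.

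The genes most like the 7 were found by Pearson's r between log2 CPM of a gene and of the summed 7 genes over 25 combinations of class and library, among 13463 genes. They were led by Igfbp7 (0.985), Adamts4 (0.980), Prex2 (0.975), Dlc1 (0.974), Cxx1a (0.967) and Timp3 (0.967). The others included Gng11, Abcg2, Fam198b, Vstm4, Gjc1, Fabp4, Mef2a, Hoxd8, Col13a1, Sptbn1, Cxcl12, Eml1 and Mxd4 (0.954). The points share 5 libraries and 5 classes, so r describes mainly the endothelial-like cluster against the rest. Inside it, Igfbp7 stood at 10664 CPM in the 188 barcodes and 13050 CPM in the 32, and Abcg2 at 164 and 199 CPM. Vstm4 stood at 146 and 8.85 CPM, Gjc1, which encodes connexin 45, at 113 and 22.1 CPM, and Adamts4 at 559 and 186 CPM. Among the 7 genes r was from 0.577 for Mcam to 0.956 for Abcc9. Each of them is part of the sum it was compared with, which fixes these values in part.

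The libraries differed in how many endothelial-like barcodes they held. OVX had 34 (1.09%), OVX_E2 45 (2.02%), OVX_E2_PBDE 72 (2.04%), OVX_E2_P4 29 (0.936%) and OVX_E2_P4_PBDE 60 (2.54%). Of these, 88.2%, 82.2%, 87.5%, 72.4% and 61.7% had at least 3 of the 7 genes, and after thinning 50%, 37.8%, 47.2%, 37.9% and 46.7%. The low share in OVX_E2_P4_PBDE was not seen at equal depth, and its endothelial-like barcodes had the lowest median depth, 5130 UMIs. For every 100 UMIs of endothelial markers there were between 30.1 (OVX_E2_P4_PBDE) and 36.4 (OVX) UMIs of the 7 genes.

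In the endothelial-like cluster the level of Rgs5 for OVX was 383 CPM, for OVX_E2 404, for OVX_E2_PBDE 552, for OVX_E2_P4 464 and for OVX_E2_P4_PBDE 286 CPM. The counting intervals of its highest library (495 to 613) and lowest library (232 to 348) were separate, but they leave out the spread between barcodes. Rgs5 UMIs were gathered in part of the barcodes, 348 in 41 of 72 for OVX_E2_PBDE and 99 in 30 of 60 for OVX_E2_P4_PBDE. After thinning, 45.8% and 45% of the barcodes of these libraries had an Rgs5 UMI, so the share with Rgs5 was similar. Over all libraries in the order first given, Des stood at 211, 189, 154, 90.9 and 118 CPM. Cspg4 stood at 11.5, 14.7, 17.4, 4.54 and 26.0 CPM, on 1 to 11 UMIs, and Mcam at 92.0, 77.9, 96.7, 31.8 and 57.7 CPM. These 3 genes were lowest in OVX_E2_P4.

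Kcnj8 stood at 310.4, 267, 260.1, 227 and 188 CPM in the same order of libraries. Abcc9 stood at 406, 255, 327, 295 and 294 CPM, and Pdgfrb at 257, 141, 213, 145 and 159 CPM. All 3 were highest in OVX. Among only the barcodes with at least 3 of the 7 genes and the endothelial UMIs, Pdgfrb alone was highest in OVX. There Kcnj8 stood at 302 CPM in OVX and 315 in OVX_E2, and Abcc9 at 390.5 CPM in OVX and 402 in OVX_E2_P4. In the whole cluster, neighbours in the order of libraries had overlapping intervals for each of the 7 genes.

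The comparison of OVX_E2 with OVX concerns estradiol in the ovariectomized gland. In the endothelial-like cluster 0 of 7 genes passed a 2-fold difference, against 11.8% of all genes. Pdgfrb had a ratio of 0.549 (0.385 to 0.782) and Abcc9 of 0.627 (0.479 to 0.821), and the intervals of the other 5 included 1. Over all barcodes, where fewer cells of a type and less RNA per cell cannot be told apart, 1 of 7 passed, against 22.1% of all genes. This was Abcc9, at 9.61 against 22.5 CPM, a ratio of 0.426 (0.366 to 0.496). Pdgfrb stood at 26.1 against 49.9 CPM (0.523) and Kcnj8 at 9.54 against 13.7 CPM (0.698), while Rgs5 stood at 7.10 against 5.28 CPM (1.35). Fibroblast-like barcodes were 926 of 2229 in OVX_E2 and 2562 of 3107 in OVX, and the share of endothelial-like barcodes had a ratio of 1.84 (1.16 to 2.97).

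The comparison of OVX_E2_P4 with OVX_E2 concerns progesterone added to estradiol. In the endothelial-like cluster 2 of the 6 genes with enough UMIs passed, against 13.5% of all genes, Des with a ratio of 0.480 (0.280 to 0.786) and Mcam with 0.409 (0.154 to 0.928, 7 against 37 UMIs). Rgs5, Kcnj8, Abcc9 and Pdgfrb had ratios from 0.85 to 1.16 with intervals that included 1. Over all barcodes 4 of 7 passed, all lower, against 5.28% of all genes. Rgs5 stood at 3.47 against 7.10 CPM (0.488), Des at 1.17 against 3.52 CPM (0.332), Kcnj8 at 4.51 against 9.54 CPM (0.473) and Cspg4 at 0.246 against 0.541 CPM (0.454, 0.168 to 1.12). Under 2 other scalings of the totals 1 gene passed instead of 4, against 5.16% and 5.14% of all genes. With the main scaling the median log2 ratio of all genes was -0.107. The share of endothelial-like barcodes had a ratio of 0.464 (0.280 to 0.756). This share also moves with the other classes. Luminal-like barcodes were 1844 of 3097 in OVX_E2_P4 and 1103 of 2229 in OVX_E2, and fibroblast-like barcodes were 925 and 926.

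The comparison of OVX_E2_PBDE with OVX_E2 concerns the flame retardants under estradiol. In the endothelial-like cluster 0 of 7 genes passed, against 9.54% of all genes, and over all barcodes 0 of 7, against 5.55%. In the cluster Pdgfrb had a ratio of 1.51 (1.12 to 2.05), Rgs5 of 1.37 (1.14 to 1.64) and Abcc9 of 1.28 (1.02 to 1.62). The share of endothelial-like barcodes had a ratio of 1.01 (0.687 to 1.5), with luminal-like barcodes 1325 of 3526 in OVX_E2_PBDE and 1103 of 2229 in OVX_E2.

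The comparison of OVX_E2_P4_PBDE with OVX_E2_P4 concerns the flame retardants under both hormones. In the endothelial-like cluster 1 of 7 genes passed, against 12.2% of all genes, Cspg4 with 9 against 1 UMIs and a ratio of 5.72 (0.792 to 251). Rgs5 had a ratio of 0.616 (0.463 to 0.821). Over all barcodes 2 of 7 passed, against 6.38% of all genes, Des at 2.70 against 1.17 CPM (2.32, 1.5 to 3.61) and Cspg4 at 0.651 against 0.246 CPM (2.65, 1.02 to 7.38). The share of endothelial-like barcodes had a ratio of 2.72 (1.72 to 4.39), with luminal-like barcodes 1259 of 2358 in OVX_E2_P4_PBDE and 1844 of 3097 in OVX_E2_P4. OVX_E2 serves in 3 of these comparisons and OVX_E2_P4 in 2, so they are not independent.

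**Figure D5:**
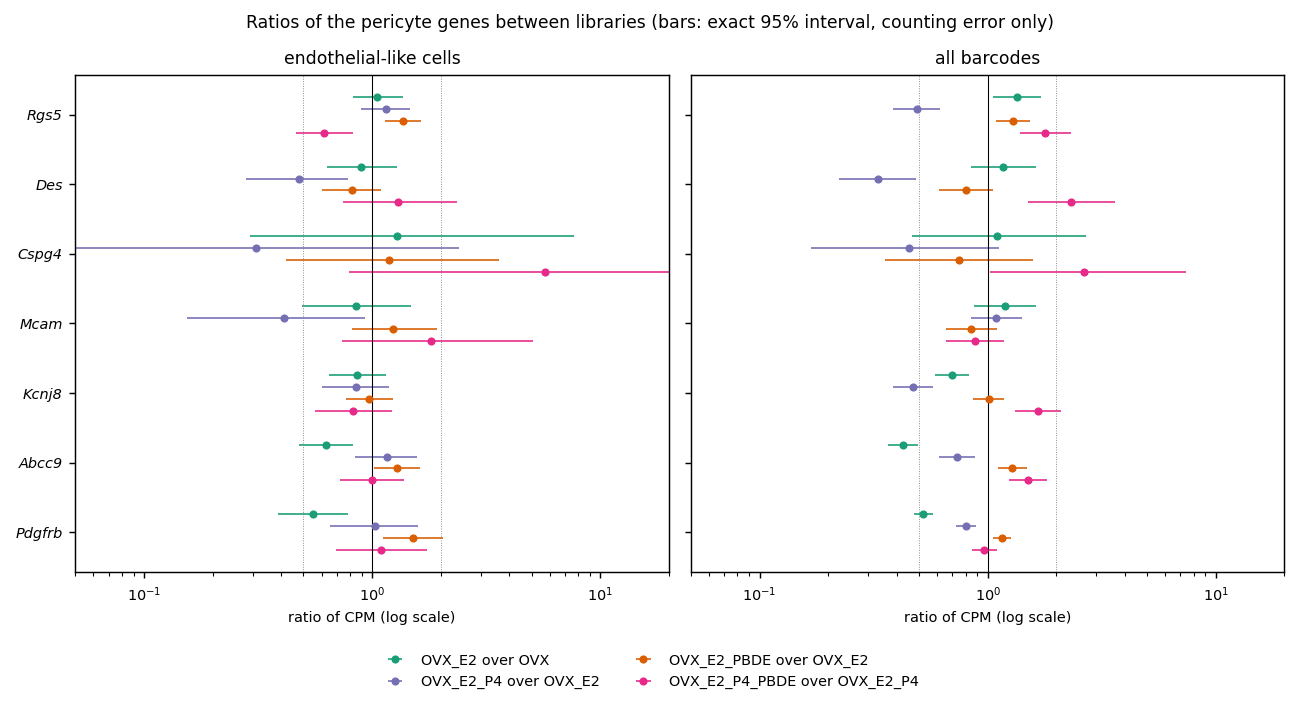
Ratios of CPM between libraries for the 7 genes (log axis) in the endothelial-like cluster (left) and over all barcodes (right), with 1 colour per comparison, exact 95% intervals as bars and dotted lines at 2-fold. Des and Mcam lie below 1 for OVX_E2_P4 over OVX_E2 in the cluster, and 2 intervals of Cspg4 run past its axis.

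Fibroblasts were compared within clusters, because the libraries filled different clusters. The Cxcl14 cluster had Vtn, of the other pericyte markers, among its leading 10 genes, beside Dcn at 12486 CPM and Col1a1 at 3205 CPM. In the Mfap4 cluster the level of Pdgfrb for OVX was 105 CPM (75.1 to 143) and for OVX_E2 195 CPM (173 to 218), followed by OVX_E2_PBDE with 189, OVX_E2_P4 with 210.1 and OVX_E2_P4_PBDE with 155 CPM. The intervals of OVX and OVX_E2 were separate. This cluster took 3.47% of the fibroblast-like barcodes of OVX and from 15.5 to 31.0% of those of the other libraries. In the Cxcl13 cluster Kcnj8 stood at 24.4, 31.9, 15.5, 17.6 and 23.6 CPM in the same order of libraries and Pdgfrb at 70.5, 76.8, 60.2, 71.4 and 90.4 CPM. In the Akr1c18 cluster Kcnj8 stood at 36.6, 29.2, 22.1, 21.5 and 16.8 CPM, the first on 10 UMIs.

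OVX had 14 co-expressing barcodes (0.451%), OVX_E2 11 (0.493%), OVX_E2_PBDE 28 (0.794%), OVX_E2_P4 7 (0.226%) and OVX_E2_P4_PBDE 7 (0.297%). The ratio of shares was 1.10 (0.450 to 2.60) for OVX_E2 over OVX and 0.458 (0.151 to 1.29) for OVX_E2_P4 over OVX_E2. With PBDEs it was 1.61 (0.777 to 3.58) over OVX_E2 and 1.31 (0.393 to 4.39) over OVX_E2_P4. All 4 intervals included 1 under this rule. When barcodes with endothelial or basal UMIs were kept, the ratios were 1.67 (1.08 to 2.59), 0.411 (0.249 to 0.667), 1.19 (0.830 to 1.71) and 1.92 (1.16 to 3.23) in the same order, and 3 of these intervals left out 1. For OVX_E2_P4 over OVX_E2 the interval also left out 1 with 2 of 7 genes required (0.538, 0.400 to 0.722), with at most 5% mitochondrial UMIs (0.278, 0.0645 to 0.937) and after thinning to 3000 UMIs (0.103, 0.00228 to 0.80).

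Of the genes with at least 10 UMIs in co-expressing barcodes, 3 of 3 were 2-fold lower in OVX_E2 than in OVX, against 26.6% of all genes in either direction. In OVX_E2_P4 over OVX_E2, 3 of 3 were higher, against 24.7%. In OVX_E2_PBDE over OVX_E2, 0 of 4 passed, against 15.7%, and in OVX_E2_P4_PBDE over OVX_E2_P4, 3 of 3 were lower, against 28.8%. The 3 were Kcnj8, Abcc9 and Pdgfrb. Each such barcode must hold at least 3 of the genes whatever its depth, and the median depths were 6002, 10030, 9241, 7515 and 4550 UMIs, so nothing is read from these counts.

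The genes farthest apart between libraries in co-expressing barcodes were mostly not pericyte genes. Ptn (245 against 1 UMIs), Ly6d (99 against 0) and Prlr (122 against 1) were among the highest in OVX_E2 over OVX, and Fabp4 (0 against 149) was the lowest. Fabp4 (78 against 0) was the highest and Ptx3 (0 against 59) the lowest in OVX_E2_P4 over OVX_E2. Ccl5 (143 against 1) and Acta2 (51 against 0, all in 1 barcode) were the highest in OVX_E2_PBDE over OVX_E2, and Sdc4 (41 against 103) was the lowest. In OVX_E2_P4_PBDE over OVX_E2_P4, Fam25c (84 against 1) was the highest and Ccl7 (0 against 72) the lowest. The 67 barcodes of these comparisons were drawn from different cell types in each library.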

How the data were processed

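The authors deposited raw count tables of UMIs per gene and barcode, without normalization, for 5 libraries, 1 per group. The submitters' processing notes name Cell Ranger 2.0.0 and mm10. Groups came from the labels. Barcodes with at least 500 genes, at least 1000 UMIs and at most 10% mitochondrial UMIs were kept, and the shallowest deposited barcode had 3374 UMIs.

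Barcodes were clustered together with scanpy 1.11.5 and igraph 0.11.9 (python 3.11.15) on 2000 variable genes without the 7 genes, with 30 principal components, 20 neighbours and a resolution of 1. A cluster took the class with the highest mean relative marker level among the endothelial, basal, luminal, fibroblast and hematopoietic lists. The pericyte lists were scored but could not name a cluster. The endothelial-like cluster scored 0.953 for the endothelial list, 0.997 for the 7 genes and 0.753 for the other pericyte markers. The members and lists were chosen with earlier results of these data known. Named were the 7 genes, the genes of each list highest in co-expressing barcodes, the 20 genes most like the 7 (1 is not reported here), and genes from the 5 highest and 5 lowest ratios per comparison (at least 50 UMIs over both libraries). Higd1b, Ndufa4l2, Cox4i2, Mmrn1, Myocd, Pln, Actg2, Pdgfb, Kcnj11, Abcc8, Rgs4, Nid2, Col18a1 and Pgr were named after their values were seen.

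Scrublet scored doublets, and none was removed. Genes with at least 10 UMIs over both sets were called at 2-fold after 1 UMI was added to each sum. Sums have Poisson, shares Clopper-Pearson and ratios conditional binomial intervals (scipy 1.17.1, numpy 2.4.6, pandas 2.3.3). Barcodes were thinned to 3000 UMIs where the text says so, and other shares were read at full depth. The ratio procedure was tested on simulated data. With 1 library per group no test was run. Alternatives changed the co-expression rule, depth, scaling, UMI minimum, doublets and mitochondrial limit. Figures were drawn with matplotlib 3.10.9.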

Additional observations from a re-analysis of the deposited data

Results flagged for a closer look

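Barcodes outside every comparison also carried the genes. Of 27 barcodes left out by the quality thresholds, 26 of them for more than 10% mitochondrial UMIs, 5 had at least 3 of the 7 genes, which is 18.5% (6.30 to 38.1) against 1.75% of the barcodes that passed. All 5 had endothelial UMIs, and 4 were from OVX_E2_PBDE and 1 from OVX_E2_P4.

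Rgs5 in endothelial-like barcodes had a ratio of 1.37 (1.14 to 1.64) for OVX_E2_PBDE over OVX_E2 and of 0.616 (0.463 to 0.821) for OVX_E2_P4_PBDE over OVX_E2_P4, so the library with PBDEs was higher without progesterone and lower with it. The difference between both ratios was not tested, since each group was 1 library. After thinning, the share of barcodes with an Rgs5 UMI was 40% for OVX_E2 and 45.8% with PBDEs, and 48.3% for OVX_E2_P4 and 45% with PBDEs.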

How the results depend on the processing

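No paired analysis was possible because each group was 1 library, and for the same reason no replicate could be left out. Of the alternative values for ratios of shares of co-expressing barcodes, 48 moved by less than the counting interval and 4 moved by more. The ratio of OVX_E2_P4 over OVX_E2 was 1.44 with 4 of 7 genes required and 0.103 after thinning to 3000 UMIs. After thinning, OVX_E2_PBDE over OVX_E2 was 0.722 and OVX_E2_P4_PBDE over OVX_E2_P4 was 7.88, on 1 to 8 barcodes per library. Further ratios that crossed 1, with intervals that included it, were 0.905 and 0.465 for OVX_E2 over OVX with 2 and 4 of 7 genes required, 0.940 for OVX_E2_PBDE over OVX_E2 with 2, and 0.870, 0.657 and 0.985 for OVX_E2_P4_PBDE over OVX_E2_P4 with 2, with 4 and with barcodes set apart from 1 UMI. In co-expressing barcodes with no minimum of UMIs, 6 of the 7 genes passed 2-fold in OVX_E2 over OVX, against 36.7% of all genes. In OVX_E2_P4 over OVX_E2, 5 of 7 passed, against 34.8%, more genes being compared in both. In OVX_E2_PBDE over OVX_E2, 1 of 4 passed with median-of-ratios size factors, against 15.3% of all genes, and 1 of 4 with 0.5 UMI added, against 17.5%. In OVX_E2_P4_PBDE over OVX_E2_P4, 0 of 3 passed with size factors, against 31.9% of all genes. Without ribosomal and mitochondrial genes in the totals 1 of 3 passed, against 29.1%. Over all barcodes, 1 of 7 passed in OVX_E2_P4 over OVX_E2 under each of these 2 scalings, against 5.16% and 5.14% of all genes. Where not stated, the cause was not tested. Alternatives chosen after seeing the data counted barcodes with 3 or more of the genes in the endothelial-like cluster (1.72, 1.03 to 2.88; 0.408, 0.227 to 0.716; 1.08, 0.706 to 1.66; and 2.31, 1.32 to 4.16), or left out fibroblast-like barcodes, shared barcode sequences or the mitochondrial limit, and under these each ratio kept its side of 1. At other clustering resolutions the endothelial-like cluster had 239 and 241 barcodes. Depth limits Cspg4 most, with 64 UMIs in all.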
